A study of Mus musculus with 60 samples.

Results

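Striatum and hippocampus of adult wild-type mice were compared gene by gene by RNA sequencing. The comparison used the 10 wild-type striatum and the 10 wild-type hippocampus libraries, 20 of the 60 libraries of the series, and these were chosen by their region and genotype labels alone. The series also holds wild-type prefrontal cortex and the same 3 regions of knockout mice, with 10 libraries each. Wild-type mice were Adgrl3 +/+ and knockout mice Adgrl3 -/- (the gene, also called Lphn3, encodes latrophilin-3, a neuronal receptor of the adhesion class that binds teneurins and FLRT proteins). The labels give 12 mice of each genotype, killed at postnatal days 65 to 76, and name no treatment. Frozen brains were microdissected, and total RNA was extracted from each piece of tissue. Sex, strain, litter, how the knockout allele was made, and whether libraries with the same number came from 1 mouse are unknown here, so p-values measure the spread between these libraries, which may be technical in part.

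The striatum is the main input station of the basal ganglia. Most of its neurons are medium spiny neurons, which release GABA and read dopamine through the D1 receptor (direct pathway, with the peptides substance P and dynorphin) or the D2 receptor (indirect pathway, with enkephalin), and a small population of cholinergic interneurons supplies its acetylcholine. The hippocampus is a cortical structure built around a chain of glutamate-releasing neurons: granule cells of the dentate gyrus, mossy cells of the hilus, and pyramidal cells of the fields CA3, CA2 and CA1. In bulk tissue, fewer cells of a type and less RNA per cell cannot be told apart.

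The 20 libraries held between 38985577 and 50641041 counted reads. Levels below are counts relative to library size (CPM) over the whole gene span, with library sizes scaled by the TMM method, so they rank libraries for a gene but not genes against each other. Some libraries stood apart within their region. The summed level of 20 genes shared by all medium spiny neurons was 2215, 1767 and 1731 CPM in hippocampus libraries 8, 1 and 9 and 1444 to 1581 CPM in the other 7. The summed level of 12 genes that mark thalamus was 973, 971 and 1038 CPM in striatum libraries 3, 5 and 6 and 605 to 692 CPM in the other 7. Some results that these libraries move are given below with and without them. Others are given with all libraries only, and the part these libraries play in them was not tested.

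A gene is described here as passing the test where its Benjamini-Hochberg adjusted p was under 0.05 in edgeR's quasi-likelihood test, and as called where it also differed by at least 2-fold. Differences are log2 values of striatum minus hippocampus with their standard errors, so that a positive value is higher in striatum. Of 15624 genes tested, 10550 passed (67.5%; 32.9% toward striatum and 34.6% toward hippocampus), and 6968 of these differed by less than 0.5 on the log2 scale. Calls numbered 1557 (9.97%), with 775 higher in striatum (4.96%) and 782 higher in hippocampus (5.01%). These shares of all genes tested are the background for every count of called list members below. The 10 libraries of each region did not overlap for 1282 of the called genes and for 4352 of all genes tested (27.9%). Large differences were more often toward striatum: 228 genes were at least 4-fold higher there and 179 in hippocampus, and at 16-fold or more the counts were 49 and 23. The median difference over all genes was -0.01 and the median size 0.21. Genes called for striatum took 7.32% ± 0.525 of the counted reads in striatum and 2.43% ± 0.197 in hippocampus (SD, n = 10), and genes called for hippocampus took 1.64% ± 0.139 and 4.45% ± 0.207. Called genes spanned a median of 35497 bases for striatum and 30378 for hippocampus, against 24921.5 over all tested genes.

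**Figure D1:**
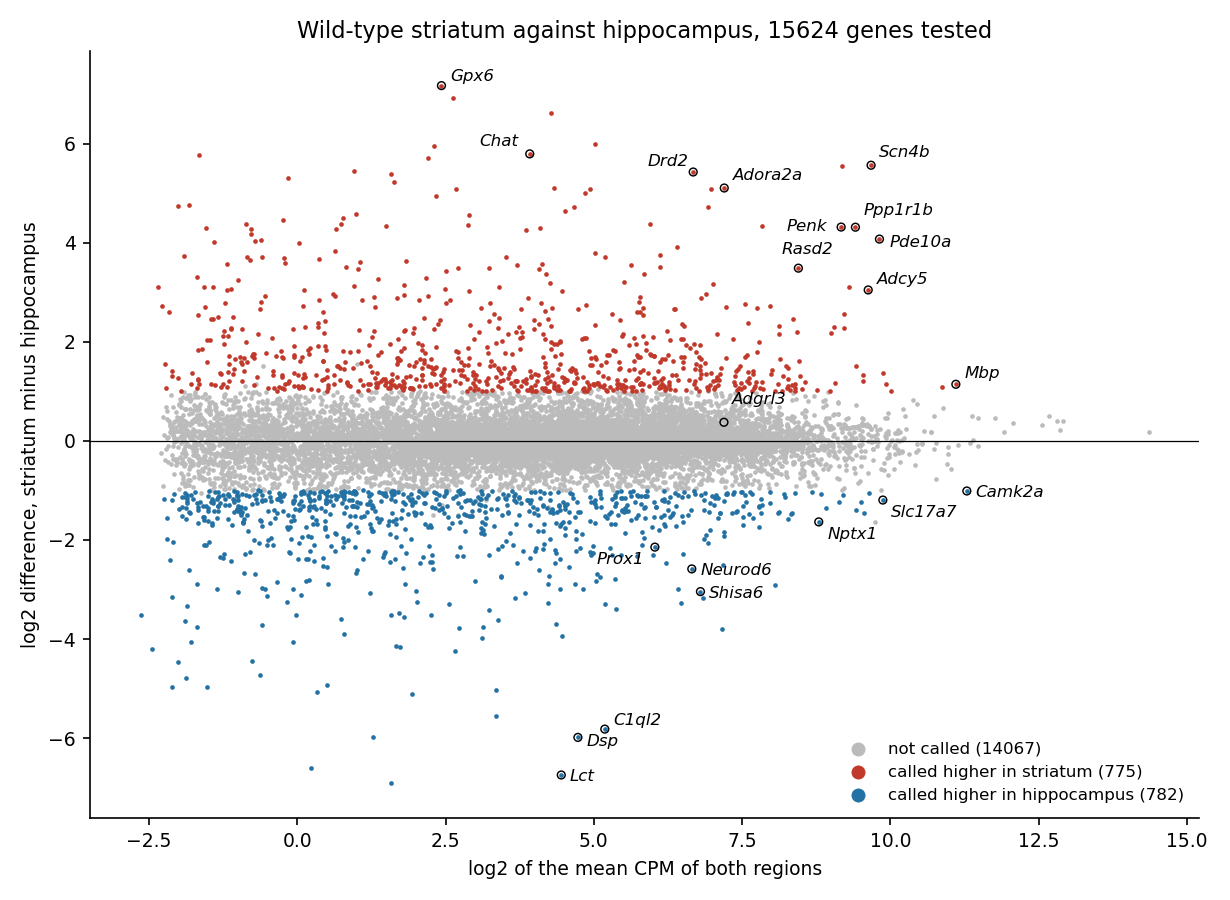
Log2 difference (striatum minus hippocampus) of each of the 15624 tested genes against its mean level, with the 775 genes called higher in striatum and the 782 called higher in hippocampus in colour. The cloud is centred near 0 (median -0.01), and the labelled genes farthest from it are Gpx6 (7.17) and Lct (-6.74).

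The 4 genes named as markers of these regions separated the libraries without overlap. Rasd2, a small GTPase of medium spiny neurons also known as Rhes, had 556, 631 and 822 CPM in striatum (lowest, median and highest of 10 libraries) and 48.3, 52.9 and 83.0 CPM in hippocampus, a log2 difference of 3.49 ± 0.10. Adcy5, the main adenylyl cyclase of striatal neurons, had 1275, 1369 and 1783 CPM against 133, 163 and 236 CPM (3.05 ± 0.10). Lct, which encodes lactase and is used as a marker of dentate granule cells, had 0.222, 0.398 and 0.782 CPM in striatum and 30.9, 39.95 and 59.9 CPM in hippocampus (-6.74 ± 0.18). C1ql2, a secreted synaptic organiser of the mossy fibres that granule cells send to CA3, had 0.811, 1.24 and 1.79 CPM against 53.2, 68.9 and 102 CPM (-5.82 ± 0.15). Every striatum library was thus above every hippocampus library for Rasd2 and Adcy5 and below all of them for Lct and C1ql2, with adjusted p of 1.5e-17, 1.2e-16, 6.8e-18 and 7.2e-18 (edgeR's quasi-likelihood test).

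The sequence before the transcription start differs among these markers, and a CG-rich and a CG-poor example are printed to show it. RefSeq promoters (GRCm38.p6, 250 bases up to the start, 5′ to 3′) held 27 CG pairs for Rasd2 (chr8:75213694-75213943, plus strand), 32 for Adcy5, 20 for C1ql2 and 1 for Lct (chr1:128328319-128328568, minus strand). CG pairs are in capitals.
Rasd2: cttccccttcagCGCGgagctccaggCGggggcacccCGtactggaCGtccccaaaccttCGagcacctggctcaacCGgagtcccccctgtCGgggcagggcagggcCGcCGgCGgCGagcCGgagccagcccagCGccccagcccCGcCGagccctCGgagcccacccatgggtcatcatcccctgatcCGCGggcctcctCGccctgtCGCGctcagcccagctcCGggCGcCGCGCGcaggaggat
Lct: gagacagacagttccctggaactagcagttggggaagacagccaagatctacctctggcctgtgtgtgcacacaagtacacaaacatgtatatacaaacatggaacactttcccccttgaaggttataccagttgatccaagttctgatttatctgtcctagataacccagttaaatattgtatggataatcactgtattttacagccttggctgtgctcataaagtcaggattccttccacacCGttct
GC content was 75.2% in the Rasd2 promoter and 42.8% in that of Lct. The median number of CG pairs was 14 over 15137 promoters of tested genes, 10 over 751 promoters of genes called for striatum and 8 over 729 promoters of genes called for hippocampus.

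Genes shared by medium spiny neurons were high in striatum almost without exception. Of 20 such genes, 19 were called higher in striatum and none in hippocampus, with a median difference of 3.01, beside 4.96% of all genes tested. The counts were the same without hippocampus libraries 1, 8 and 9, without striatum libraries 3, 5 and 6, and without both sets. Scn4b, the β4 subunit of voltage-gated sodium channels, had 1347, 1562 and 2074 CPM in striatum and 19.1, 29.8 and 81.9 CPM in hippocampus (5.57 ± 0.24, a 47.4-fold difference). The highest hippocampus value was that of library 8, and it lay far below the lowest striatum value.

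Ppp1r1b encodes DARPP-32, the phosphatase inhibitor through which dopamine signals in these neurons, and had 1132, 1229 and 1670 CPM in striatum and 37.6, 53.6 and 139 CPM in hippocampus (4.31 ± 0.23). Pde10a, the phosphodiesterase that degrades cyclic nucleotides in medium spiny neurons, had 1461, 1649 and 2240 CPM against 80.9, 94.2 and 155 CPM (4.07 ± 0.12). Neither gene overlapped between regions. Striatum library 9 had the highest value of both, and it also had the highest sum over the 20 genes (18170 CPM, against a lowest sum of 12640 CPM). The synaptic protein gene Syndig1l (5.08 ± 0.20), the G protein regulator Rgs9 (4.34 ± 0.17) and the retinoic acid receptor Rarb (3.38 ± 0.11) were called as well. Kcnip2, a subunit of A-type potassium channels, was the member that was not called: it passed the test with a difference of 0.63 ± 0.07.

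**Figure D2:**
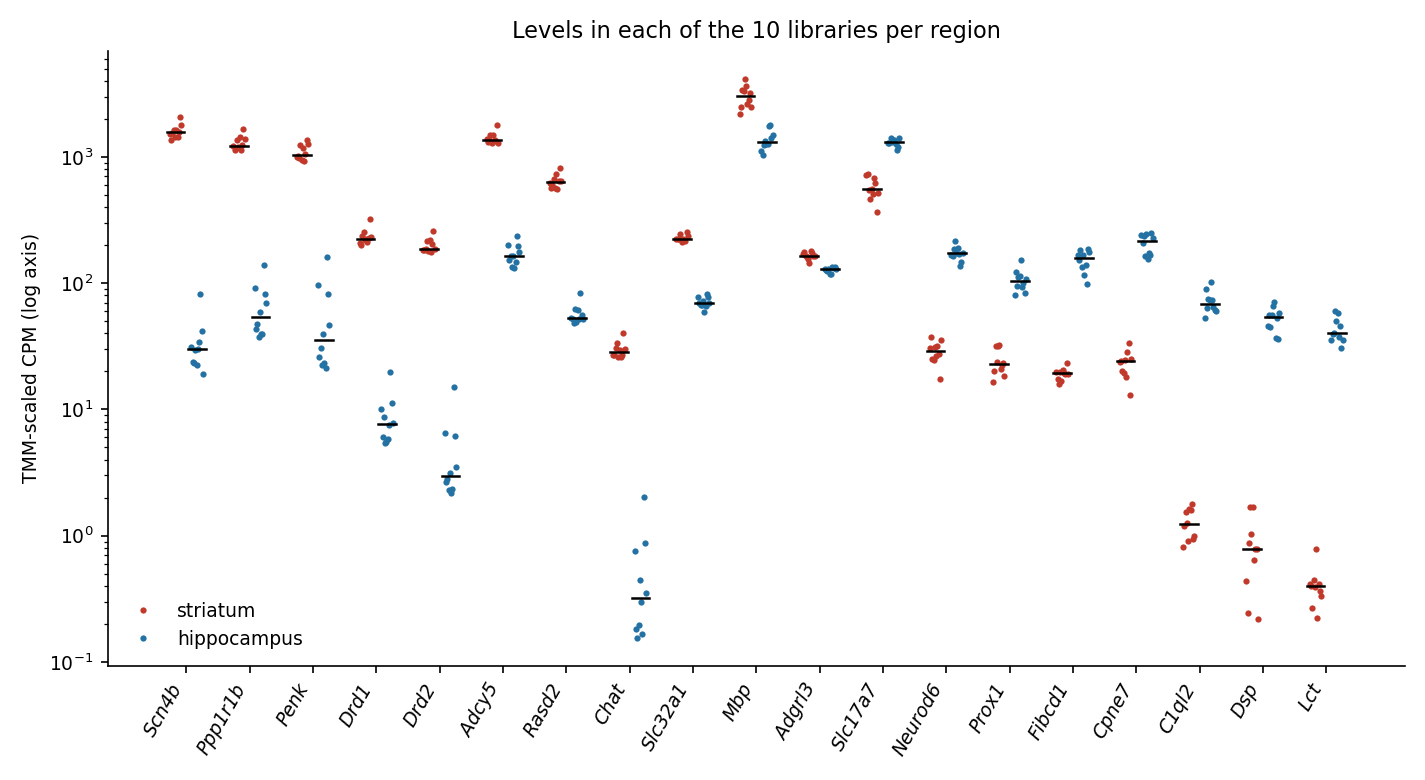
CPM (log scale) of 19 genes in each of the 10 striatum and 10 hippocampus wild-type libraries, with points for libraries and bars for medians. Scn4b spans 1347 to 2074 CPM in striatum and 19.1 to 81.9 CPM in hippocampus, while Adgrl3 spans 146 to 179 CPM and 117 to 134 CPM.

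Both output pathways of the striatum were represented. Of 9 direct pathway genes, 7 were called higher in striatum (median 2.61), and of 7 indirect pathway genes, 6 were (median 4.32); none of either group was called for hippocampus. Drd1, the D1 dopamine receptor, had 200.1, 225 and 324 CPM in striatum and 5.42, 7.62 and 19.7 CPM in hippocampus (4.73 ± 0.21). Drd2, the D2 receptor, had 176, 187 and 260.1 CPM against 2.18, 2.99 and 15.2 CPM (5.43 ± 0.30). Adora2a, the adenosine receptor of indirect pathway neurons, had 250, 276 and 355 CPM against 1.49, 4.43 and 30.4 CPM (5.11 ± 0.46). All 3 receptors had their highest hippocampus value in library 8, and none overlapped between regions. Leaving out hippocampus libraries 1, 8 and 9 took the fold difference of Drd2 from 43.0 to 73.1 and that of Adora2a from 34.4 to 85.7. Tac1, the precursor of substance P, was higher by 3.75 ± 0.20, the orphan receptor Gpr6 by 5.09 ± 0.24 and Chrm4, a muscarinic receptor of direct pathway neurons, by 2.08 ± 0.10. The fold difference of Gpr6 went from 34.0 to 51.8 without the same 3 hippocampus libraries. Not called were Sfxn1 (0.39 ± 0.06), Eya1 (-0.56 ± 0.05), both listed for the direct pathway, and the kainate receptor subunit Grik3 (0.86 ± 0.04), listed for the indirect pathway.

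The opioid peptide precursors of the 2 pathways are shown by the coding sequences of the peptides they carry. Penk encodes proenkephalin and Pdyn prodynorphin, and both proteins are cut at pairs of basic residues to free short peptides that begin with the enkephalin core. In the coding sequences of the GENCODE vM21 annotation (GRCm38), an in-frame search for the letters TANGGNGGNTTNNTN found 7 such cores in the 807 bases of Penk and 3 in the 747 bases of Pdyn. Of 21794 genes searched, 21 held at least 1 match to this pattern (0.0964%) and only these 2 held at least 2 (0.00918%). The pattern also admits other residues in its last codons, so a match in another gene need not be an enkephalin core. Each line gives 1 core in capitals with the 6 bases on either side, which hold the cleavage sites; the first 2 are Penk cores that end in ATG, for methionine, the next is the Penk core that ends in CTG, for leucine, and the last 2 are from Pdyn.
Penk core 1: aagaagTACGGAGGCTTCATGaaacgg
Penk core 3: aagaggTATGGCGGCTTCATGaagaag
Penk core 6: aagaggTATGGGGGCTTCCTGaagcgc
Pdyn core 1: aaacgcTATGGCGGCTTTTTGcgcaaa
Pdyn core 3: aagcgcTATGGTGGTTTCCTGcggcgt
These lie on the minus strand at chr4:4134328-4134354, chr4:4134220-4134246 and chr4:4133935-4133961 for Penk and at chr2:129688232-129688258 and chr2:129688067-129688093 for Pdyn, each within 1 exon. Of the 7 Penk cores, 6 were of the methionine kind. Penk had 931, 1036 and 1363 CPM in striatum and 21.4, 35.3 and 161 CPM in hippocampus (4.32 ± 0.37, adjusted p = 2.3e-09 by edgeR's quasi-likelihood test), and Pdyn had 84.3, 91.6 and 112 CPM against 11.5, 13.9 and 26.9 CPM (2.61 ± 0.13). No hippocampus library reached the lowest striatum library for either precursor. The fold difference of Penk was 19.9 with all libraries and 36.4 without hippocampus libraries 1, 8 and 9.

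Compartment markers of the striatum differed less. Of 12 genes that mark striosomes or matrix, 4 were called higher in striatum and none in hippocampus, beside 4.96% and 5.01% of all genes tested. Their median was 0.28. The μ opioid receptor gene Oprm1, a striosome marker, was higher by 1.23 ± 0.08, the transcriptional inhibitor Id4 by 1.36 ± 0.09, and the semaphorin Sema5b by 1.198 ± 0.06. The ephrin receptor Epha4 (-0.74 ± 0.05) and the vesicle protein gene Sv2b (-0.57 ± 0.06) passed the test in the other direction without being called.

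The cyclic AMP pathway that links these receptors to DARPP-32 was high in striatum at nearly every step. Of 20 genes, 17 were called for striatum and none for hippocampus, with a median of 2.69. They include the receptors, Adcy5, Rgs9, Pde10a and Pde7b, another phosphodiesterase (3.17 ± 0.12). Members present at similar levels in both regions were Prkaca, the catalytic subunit of protein kinase A (159 ± 5.5 CPM in striatum and 170 ± 5.7 CPM in hippocampus, SD, n = 10), and Rgs14, a G protein regulator known from CA2 (-0.42 ± 0.06). Both passed the test with differences below 2-fold, as did Pde8b (0.86 ± 0.05). Of the 20 genes, 9 also stand in the list of medium spiny neuron genes.

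Genes of cholinergic neurons were low in number of reads but far apart between the regions. Of 10 such genes, 7 were called for striatum and none for hippocampus, with a median of 4.24. Chat, the enzyme that makes acetylcholine, had 25.9, 28.3 and 40.5 CPM in striatum and 0.156, 0.323 and 2.04 CPM in hippocampus (5.79 ± 0.29). Slc5a7, the choline transporter, had 35.1, 38.3 and 45.9 CPM against 0.487, 1.04 and 2.90 CPM (5.11 ± 0.18). Hippocampus library 8 was again the highest of its region for both, and neither gene overlapped. Without hippocampus libraries 1, 8 and 9 the fold difference of Chat was 115 in place of 55.5. The transcription factor Lhx8, needed to make cholinergic neurons, was higher by 5.39 ± 0.26 and Tacr1, the receptor for substance P, by 3.38 ± 0.22. The same removal took the fold difference of Lhx8 from 42.0 to 67.5 and that of Slc18a3 from 52.2 to 81.6. Chat and the vesicular acetylcholine transporter gene Slc18a3 (5.71 ± 0.22) overlap on the same strand of chromosome 14, so their reads may be shared. Ache, which encodes the enzyme that breaks acetylcholine down, passed the test with 0.62 ± 0.03.

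Among 18 transcription factors of the striatum, 12 were called for striatum and 1 for hippocampus (median 2.04). Six3, a homeodomain factor of indirect pathway neurons, had 34.8, 43.4 and 52.4 CPM in striatum and 0.106, 1.26 and 5.43 CPM in hippocampus (4.63 ± 0.35). Foxp2, a forkhead factor known for its part in vocal learning, had 52.4, 59.8 and 68.5 CPM against 1.73, 3.66 and 10.9 CPM (3.79 ± 0.24). Rxrg, a retinoid X receptor, had 88.4, 112 and 156 CPM against 2.90, 5.75 and 7.55 CPM (4.39 ± 0.16). Each of these separated the regions without overlap, and the fold difference of Six3 was 45.4 in place of 24.8 without hippocampus libraries 1, 8 and 9 (83.6 in place of 30.9 for Isl1). Isl1 (4.95 ± 0.40), a factor of direct pathway and cholinergic neurons, Dlx6 (2.88 ± 0.13), Meis2 (2.69 ± 0.10), Ebf1 (2.42 ± 0.09) and Sp9 (2.03 ± 0.13) were called with them, and all 5 act in the development of forebrain inhibitory neurons. The exception was the orphan nuclear receptor Nr4a3, which was lower in striatum by the test (-1.84 ± 0.14).

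Several of the genes with the largest differences toward striatum are known from outside the brain. Gpx6, a glutathione peroxidase, had 2.83, 11.6 and 14.3 CPM in striatum and 0, 0.0438 and 0.197 CPM in hippocampus, from 0 to 8 reads per library (7.17 ± 0.37). Ptpn7, a tyrosine phosphatase of blood cells, had 10.2, 12.0 and 14.9 CPM against 0, 0.0798 and 0.344 CPM (6.92 ± 0.23). Cd4, the T helper cell co-receptor, had 53.3, 60.7 and 90.8 CPM against 0.236, 0.618 and 3.88 CPM (5.997 ± 0.30). All 3 were free of overlap and had their highest hippocampus value in library 8. Serpina9, a protease inhibitor (6.63 ± 0.29), and Ido1, which degrades tryptophan (5.09 ± 0.29), belong with them. Without hippocampus libraries 1, 8 and 9 the fold differences rose from 144 to 269.9 for Gpx6, from 122 to 210.3 for Ptpn7, from 63.9 to 131 for Cd4, from 99.0 to 232 for Serpina9 and from 34.0 to 67.8 for Ido1.

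In the other direction, genes of dentate granule cells led. Of 18 such genes, 14 were called for hippocampus, beside 5.01% of all genes tested, and 1 for striatum, with a median of -1.42. Besides Lct and C1ql2, Dsp, which encodes the junction protein desmoplakin, had 0.220, 0.784 and 1.70 CPM in striatum and 36.2, 54.4 and 71.4 CPM in hippocampus (-5.99 ± 0.24). Prox1, the homeobox factor that specifies granule cells, had 16.5, 22.8 and 32.6 CPM against 80.8, 104 and 151 CPM (-2.14 ± 0.14). Both were free of overlap, though Prox1 was well above 0 in every striatum library. It had 31.8, 31.7 and 32.6 CPM in striatum libraries 3, 5 and 6 and 16.5 to 23.8 CPM in the others. The cytokine gene Il16 (-3.94 ± 0.10), the tryptophan dioxygenase Tdo2 (-4.17 ± 0.20) and the zinc finger factor Glis3 (-2.01 ± 0.10) were called with them. Calb1, the calcium buffer calbindin, passed the test toward striatum (0.48 ± 0.08), as did Pdzd2, a PDZ-domain protein gene, which was called (1.23 ± 0.11). Calb1 is a marker of matrix neurons in striatum too.

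Pyramidal cell genes of each field were called for hippocampus in part: 5 of 10 for CA1 (median -1.17), 5 of 10 for CA2 (median -0.87), 8 of 12 for CA3 (median -1.28), and 3 of 8 genes of mossy cells (median -0.65). The single call for striatum among these 40 entries was Pcp4, a calmodulin regulator that marks CA2 within the hippocampus, with 373, 444 and 519 CPM in striatum and 49.98, 64.6 and 79.3 CPM in hippocampus (2.72 ± 0.08); its span overlaps that of Igsf5 on the same strand. For CA1, Fibcd1, a receptor-like membrane protein, had 15.98, 19.3 and 23.2 CPM in striatum and 98.6, 159 and 185 CPM in hippocampus (-2.99 ± 0.11). For CA3, the copine gene Cpne7 had 13.1, 24.1 and 33.6 CPM against 156, 217 and 250 CPM (-3.16 ± 0.15); it overlaps another gene model, Gm20388, on the same strand. Neither gene overlapped between the regions. The CA1 marker Wfs1, which encodes wolframin (0.52 ± 0.13), passed the test toward striatum. Avpr1b, the vasopressin receptor of CA2, was called at a low level (0.0196 ± 0.020 CPM against 0.475 ± 0.139 CPM), as was Iyd, an iodotyrosine deiodinase listed for CA3 (-3.90 ± 0.38, and -4.99 without striatum libraries 3, 5 and 6). The calcium-binding protein calretinin, Calb2, of mossy cells and some interneurons, differed by -2.21 ± 0.19 and was called for hippocampus.

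Transcription factors of hippocampal and cortical excitatory neurons followed the same direction: 12 of 22 were called for hippocampus and 1 for striatum (median -1.17). Neurod6, a basic helix-loop-helix factor of excitatory neurons, had 17.4, 28.9 and 37.7 CPM in striatum and 136, 172 and 214 CPM in hippocampus (-2.58 ± 0.11). Neurod1, which acts when granule cells form, had 0.679, 1.57 and 2.74 CPM against 14.9, 16.4 and 23.9 CPM (-3.40 ± 0.16); it overlaps Cerkl on the same strand. No striatum library reached a hippocampus library for either. Lhx9 (-3.99 ± 0.19), Bhlhe22 (-3.39 ± 0.19), Neurod2 (-2.30 ± 0.10) and Fezf2 (-1.66 ± 0.11), all factors of forebrain excitatory neurons, were called as well. The call for striatum was Egr4 (1.02 ± 0.20), which is also an immediate early gene. Mef2c passed the test toward striatum (0.60 ± 0.07) without a call. Of 14 genes of adult neurogenesis, 5 were called for hippocampus and none for striatum (median -0.37). Hopx, a marker of quiescent stem cells, was among them (-2.12 ± 0.08), as was Eomes at a low level (0.133 ± 0.080 CPM in striatum, 0.709 ± 0.233 CPM in hippocampus). Dcx, the doublecortin gene of immature neurons, was at 22.5 ± 3.0 CPM in striatum and 22.5 ± 2.5 CPM in hippocampus and did not pass.

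The main vesicular transporters of glutamate and of GABA differed in opposite directions. Slc17a7, the vesicular glutamate transporter VGLUT1, had 368, 556 and 726 CPM in striatum and 1141, 1303 and 1415 CPM in hippocampus (-1.19 ± 0.10), and Slc32a1, the vesicular GABA transporter, had 210, 223 and 253 CPM against 59.1, 69.6 and 82.5 CPM (1.68 ± 0.05). The 2 transporters thus separated the regions in opposite senses without overlap. Of 10 genes of glutamatergic identity, 4 were called for hippocampus and 1 for striatum (median -0.39). The single striatal call was Slc17a8, the transporter VGLUT3 found in cholinergic interneurons (1.22 ± 0.09). Camk2a, the α subunit of calcium/calmodulin-dependent kinase II, was called for hippocampus at -1.01 ± 0.06 and was just below 2-fold without striatum libraries 3, 5 and 6 (-0.96). Of 12 genes of GABA synthesis and transport, 5 were called for striatum and none for hippocampus (median 0.86), while 2 passed the test toward hippocampus. Gad2, which makes transmitter GABA, was higher by 1.26 ± 0.04, and Gad1 passed the test with 0.82 ± 0.04. Among 16 markers of interneuron classes, 3 were called for striatum and 4 for hippocampus (median -0.02), beside 4.96% and 5.01% of all genes tested. Th, tyrosine hydroxylase (3.14 ± 0.14), and Reln, reelin (1.09 ± 0.05), were higher in striatum, while Htr3a, the ionotropic serotonin receptor (-2.32 ± 0.14), and the peptide genes Cck (-1.19 ± 0.08) and Vip (-1.15 ± 0.15) were lower. Sst, somatostatin, differed by 0.28 ± 0.06.

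Subunits of one receptor family were called in both directions. Among 14 GABA-A receptor subunits, 4 were called for striatum and 1 for hippocampus (median 0.14), the latter near the 5.01% of all genes tested. Gabrd, the δ subunit of extrasynaptic receptors, had 91.1, 102 and 124 CPM in striatum and 20.1, 22.8 and 28.4 CPM in hippocampus (2.10 ± 0.07). Gabra5, the α5 subunit known for its density in hippocampus, had 39.5, 46.5 and 54.3 CPM against 149.9, 205 and 226 CPM (-2.05 ± 0.08). Both subunits separated the regions fully and in opposite senses. Gabrg3 (1.16 ± 0.05) was also called for striatum, as were Gabrq and Gabre (1.12 ± 0.32 and 1.16 ± 0.37), which overlapped between regions and had fold differences of 2.18 and 2.23, which were 3.71 and 4.08 without striatum libraries 3, 5 and 6 and hippocampus libraries 1, 8 and 9.

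Among 20 subunits and partners of AMPA and NMDA receptors, 3 were called for striatum and 4 for hippocampus (median -0.05). Over all genes tested the shares were 4.96% and 5.01%. Shisa6, an auxiliary protein that holds AMPA receptors at synapses, had 16.3, 24.4 and 29.4 CPM in striatum and 151, 199 and 226 CPM in hippocampus (-3.04 ± 0.10). The channel subunits Gria1 (-1.05 ± 0.05) and Grin2a (-1.14 ± 0.05) and the auxiliary subunit Cacng8 (-1.09 ± 0.06) were called with it. Other auxiliary subunits went the other way: Gsg1l was higher in striatum by 2.37 ± 0.10 and Cacng4 by 2.23 ± 0.08. Grin1, the obligatory NMDA receptor subunit, differed by 0.21 ± 0.03 and Gria2 by -0.37 ± 0.04; both passed the test. Of 14 kainate and metabotropic receptor genes, 3 were called for striatum (Grm4 at 2.43 ± 0.10, Neto2 at 1.70 ± 0.05 and Grm3 at 1.11 ± 0.05) and 2 for hippocampus (Grm2 at -2.17 ± 0.17 and Grik4 at -1.85 ± 0.07), with a median of 0.37.

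Of 37 potassium channel genes, 6 were called for striatum and 2 for hippocampus (median 0.29). Over all genes tested the shares were 4.96% and 5.01%, and the hippocampal count was near the latter. The test was passed by 34 of the potassium channel genes, beside 67.5% of all genes. Kcnh4 was higher in striatum by 3.47 ± 0.14, Kcna5 by 2.48 ± 0.16 and Kcnj2, an inward rectifier, by 2.33 ± 0.09. Kcnj6 (-1.68 ± 0.10) and Kcnj3 (-1.10 ± 0.08), subunits of the channels that G proteins open, were lower. Of 26 sodium, HCN and calcium channel genes, 4 were called for striatum and none for hippocampus (median 0.07), beside the same 4.96% and 5.01%. After Scn4b these were the calcium channel subunits Cacna2d2 (1.72 ± 0.08) and Cacna2d3 (1.17 ± 0.05) and the pacemaker channel Hcn4 (1.32 ± 0.16). The main pore subunits Scn2a (0.14 ± 0.04) and Scn8a (-0.18 ± 0.03) passed the test with small differences.

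Receptors for dopamine, serotonin and noradrenaline differed by subtype. Of 22 tested, 8 were called for striatum and 5 for hippocampus (median 0.42). The serotonin receptors Htr1d (4.55 ± 0.24) and Htr1b (2.57 ± 0.11), which act on axon terminals, and Htr2a (1.35 ± 0.08) were higher in striatum, whereas Htr1a (-1.32 ± 0.11), Htr4 (-1.44 ± 0.09) and Htr5b (-3.51 ± 0.15) were higher in hippocampus. Among dopamine receptors, Drd3 was called for striatum at a low level (1.12 ± 0.226 CPM against 0.173 ± 0.053 CPM) and Drd5 for hippocampus (3.92 ± 0.63 CPM against 13.6 ± 1.61 CPM; -1.80 ± 0.09). The adrenergic receptors Adra2c (1.32 ± 0.07) and Adra1d (-2.99 ± 0.12) lay on opposite sides. Of 11 acetylcholine receptor genes, 2 were called each way (median -0.02), beside 4.96% and 5.01% of all genes tested. They were Chrm4 and Chrm2 (1.18 ± 0.07) for striatum, and Chrm5 (-1.54 ± 0.18) and Chrna5 (-1.23 ± 0.16) for hippocampus. Chrm1, the M1 receptor of principal neurons, differed by -0.46 ± 0.04.

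Of 14 genes of opioid and cannabinoid signalling, 5 were called for striatum and 2 for hippocampus (median -0.07). The striatal calls were the precursors Penk and Pdyn and the receptors Oprk1 (3.56 ± 0.23), Oprm1 and Oprd1 (1.23 ± 0.05), for dynorphin, morphine-like peptides and enkephalin respectively. The hippocampal calls were enzymes of lipid messengers: Faah, which breaks down anandamide (-1.72 ± 0.07), and Napepld, which makes it (-1.68 ± 0.08). The cannabinoid receptor Cnr1 passed the test toward striatum at 0.97 ± 0.05, just under the 2-fold line. Of 29 neuropeptide and peptide receptor genes, 5 were called each way (median 0.06). Npy2r, the presynaptic receptor for neuropeptide Y, had 5.23, 8.80 and 12.3 CPM in striatum and 45.0, 58.0 and 74.8 CPM in hippocampus (-2.70 ± 0.15), with no overlap. The somatostatin receptors Sstr3 (-1.64 ± 0.11) and Sstr4 (-1.23 ± 0.06) were lower in striatum too.

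Neurotrophic factors and their receptors were split by region. Of 20 genes, 4 were called each way (median 0.04), beside 4.96% toward striatum and 5.01% toward hippocampus of all genes tested. Bdnf, brain-derived neurotrophic factor, had 6.79, 11.9 and 17.4 CPM in striatum and 35.6, 44.0 and 51.8 CPM in hippocampus (-1.88 ± 0.11), with no overlap. Ntf3 (-4.14 ± 0.19), another neurotrophin, was called for hippocampus as well, and the receptor Ngfr (1.94 ± 0.13) for striatum. Ntrk2, the receptor for Bdnf, was at 672 ± 52 CPM in striatum and 636 ± 31 CPM in hippocampus and did not pass. Gdnf, a survival factor for dopamine neurons, was higher in striatum by 3.61 ± 0.27, a fold difference of 12.2 with all libraries and 19.9 without hippocampus libraries 1, 8 and 9. Of 21 steroid, thyroid and retinoid genes, 4 were called each way (median -0.06), beside the same 4.96% and 5.01%. Nr3c2, the mineralocorticoid receptor, had 51.5, 55.5 and 59.6 CPM in striatum and 163, 195 and 245 CPM in hippocampus (-1.81 ± 0.06). This receptor did not overlap between regions, and Hsd11b1, which regenerates corticosterone, went with it (-1.83 ± 0.08). The glucocorticoid receptor Nr3c1 differed by 0.32 ± 0.04 in the other direction. The retinoid genes Rxrg, Rarb, Crabp1 (2.22 ± 0.20) and Rbp4 (1.04 ± 0.11) made up the 4 striatal calls, and Crym, a thyroid hormone-binding protein, was called for hippocampus (-1.45 ± 0.07).

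Adgrl3 itself was moderately higher in striatum. It spans chr5:81020138-81825133 on the plus strand (GRCm38) and had 146, 165 and 179 CPM in striatum and 117, 128 and 134 CPM in hippocampus. The ranges did not overlap, and the difference was 0.38 ± 0.03 (adjusted p = 1.3e-09, edgeR's quasi-likelihood test). Of 18 latrophilins and partners, 1 was called each way (median 0.12), near the 4.96% and 5.01% of all genes tested: the paralogue Adgrl2 for striatum (1.33 ± 0.08) and the teneurin ligand Tenm2 for hippocampus (-1.10 ± 0.05). Without hippocampus libraries 1, 8 and 9, 3 were called for striatum and 1 for hippocampus. The counts were 2 and 1 without striatum libraries 3, 5 and 6, and also without both sets. Adgrl1 passed the test with 0.47 ± 0.03. Among 29 other synaptic adhesion genes and organisers, 1 was called for striatum (Lrrtm3, 1.61 ± 0.08) and 3 for hippocampus (C1ql2, C1ql3 at -1.46 ± 0.15 and Clstn2 at -1.46 ± 0.05), with a median of -0.10. The striatal count was near the 4.96% of all genes tested. Of 25 cadherins and protocadherins, 5 were called for striatum and 3 for hippocampus (median 0.20), beside 4.96% and 5.01% of all genes tested. Cdh7 (1.72 ± 0.06) and Cdh13 (1.27 ± 0.06) were higher in striatum, and Pcdh20 (-3.28 ± 0.11) and Pcdh19 (-1.72 ± 0.11) lower.

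Of 35 axon guidance genes, 6 were called for striatum and 10 for hippocampus (median -0.17), beside 4.96% and 5.01% of all genes tested. Slit1, a secreted repellent, had 31.6, 41.1 and 54.2 CPM in striatum and 219.5, 243 and 285 CPM in hippocampus (-2.50 ± 0.09). Sema3a, a secreted semaphorin, had 28.1, 34.0 and 38.3 CPM against 3.62, 4.68 and 8.68 CPM (2.68 ± 0.13). Neither overlapped. Nrp1 and Nrp2, the neuropilins that bind secreted semaphorins, were both lower in striatum (-2.31 ± 0.06 and -1.53 ± 0.13), as were the plexins Plxna1 (-1.56 ± 0.08) and Plxna4 (-1.23 ± 0.06). Plxnd1 (2.05 ± 0.10) and the ephrin receptors Epha8 (2.05 ± 0.10) and Ephb1 (1.38 ± 0.06) were higher.

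Immediate early genes, which neurons switch on with activity, varied between libraries as well as regions. Of 20, 4 were called for striatum and 2 for hippocampus (median 0.35), beside 4.96% and 5.01% of all genes tested. Egr1 had 175, 314 and 448 CPM in striatum and 54.1, 118 and 166 CPM in hippocampus (1.41 ± 0.21). Jun had 29.1, 40.01 and 47.1 CPM against 99.5, 115 and 138 CPM (-1.54 ± 0.07), and Nr4a3 had 16.7, 22.0 and 36.2 CPM against 76.2, 88.6 and 110 CPM. These 3 did not overlap, whereas Arc did (210 ± 82 CPM in striatum, 164 ± 68 CPM in hippocampus) and did not pass the test. Egr2 (1.90 ± 0.42) and Homer1 (1.05 ± 0.08) were called for striatum. Library 10 had the lowest sum over the 20 genes in each region (963 CPM in striatum and 837 CPM in hippocampus, against medians of 1634 and 1266 CPM).

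Among glia, myelin genes differed most. Of 15 genes of myelinating oligodendrocytes, 13 were called for striatum and none for hippocampus, in a narrow range of 0.91 to 1.32 (median 1.13). Mbp, myelin basic protein, had 2167, 3009 and 4154 CPM in striatum and 1039, 1300 and 1791 CPM in hippocampus (1.14 ± 0.12). The ranges did not overlap, but these genes lay close to the 2-fold line: without striatum libraries 3, 5 and 6 the count was 6 of 15, the median 0.94 and Mbp at 0.98. Of 10 genes of oligodendrocyte precursors, 2 were called for striatum (median 0.43), and Pdgfra, the receptor that defines precursors, was at 64.0 ± 2.5 CPM and 63.5 ± 3.6 CPM. Of 18 astrocyte genes, 1 was called, for hippocampus (median -0.22), near the 5.01% of all genes tested. This was Gfap, the filament protein, with 50.2, 84.9 and 131 CPM in striatum and 259, 273 and 346 CPM in hippocampus (-1.69 ± 0.14). The glutamate transporter Slc1a2 was at 2708 ± 193.5 CPM in striatum and 2660.0 ± 100.8 CPM in hippocampus. None of 13 microglia genes or 14 endothelial and mural genes was called, beside 9.97% of all genes tested. All 13 microglia genes passed the test toward striatum (median 0.26), beside 32.9% of all genes. Of the 14 endothelial and mural genes, 11 passed toward striatum and 1 toward hippocampus (median 0.22). Csf1r, the receptor for the microglial survival factor, differed by 0.46 ± 0.03.

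Genes of tissues beside the dissected regions varied with single libraries. Of 14 choroid plexus genes, 9 were called for hippocampus (median -1.45), and their summed level ran from 269.7 to 1124 CPM in striatum and from 175.2 to 1775 CPM in hippocampus. Kl, which encodes klotho, had 4.82, 22.0 and 59.4 CPM in striatum and 20.5, 76.7 and 127 CPM in hippocampus, so the ranges overlapped (-1.59 ± 0.46). The count of called choroid plexus genes was 1 without hippocampus libraries 1, 8 and 9, 12 without striatum libraries 3, 5 and 6, and 3 without both sets. Hippocampus library 10 had the highest sum (1775 CPM). Otx2, Slc4a5 and Steap1 lost their call without the libraries of any 1 number among 1, 2, 3, 5, 8, 9 and 10. Of 10 ependymal genes, 5 were called for hippocampus (median -1.02), and 2 without hippocampus libraries 1, 8 and 9. The count was 6 without striatum libraries 3, 5 and 6 and 5 without both sets. Of 12 thalamus genes, 3 were called for striatum and 1 for hippocampus. Their median of 0.67 became -0.07 without striatum libraries 3, 5 and 6. Prkcd, a protein kinase C of thalamic relay neurons, had 10.9, 15.0 and 124 CPM in striatum and 13.1, 18.5 and 44.0 CPM in hippocampus. The 3 named striatum libraries held 113 to 124 CPM and the other 7 at most 15.6 CPM; the difference was 1.06 ± 0.52 with all libraries (adjusted p = 0.078 by edgeR's quasi-likelihood test) and -0.67 without the 3. Synpo2, an actin-binding protein gene listed with thalamus, had 22.5, 29.4 and 51.4 CPM against 5.18, 7.92 and 14.2 CPM (1.95 ± 0.20) and did not overlap. It too was highest in striatum libraries 3, 5 and 6 (47.7, 45.8 and 51.4 CPM), with at most 32.3 CPM in the other 7.

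**Figure D3:**
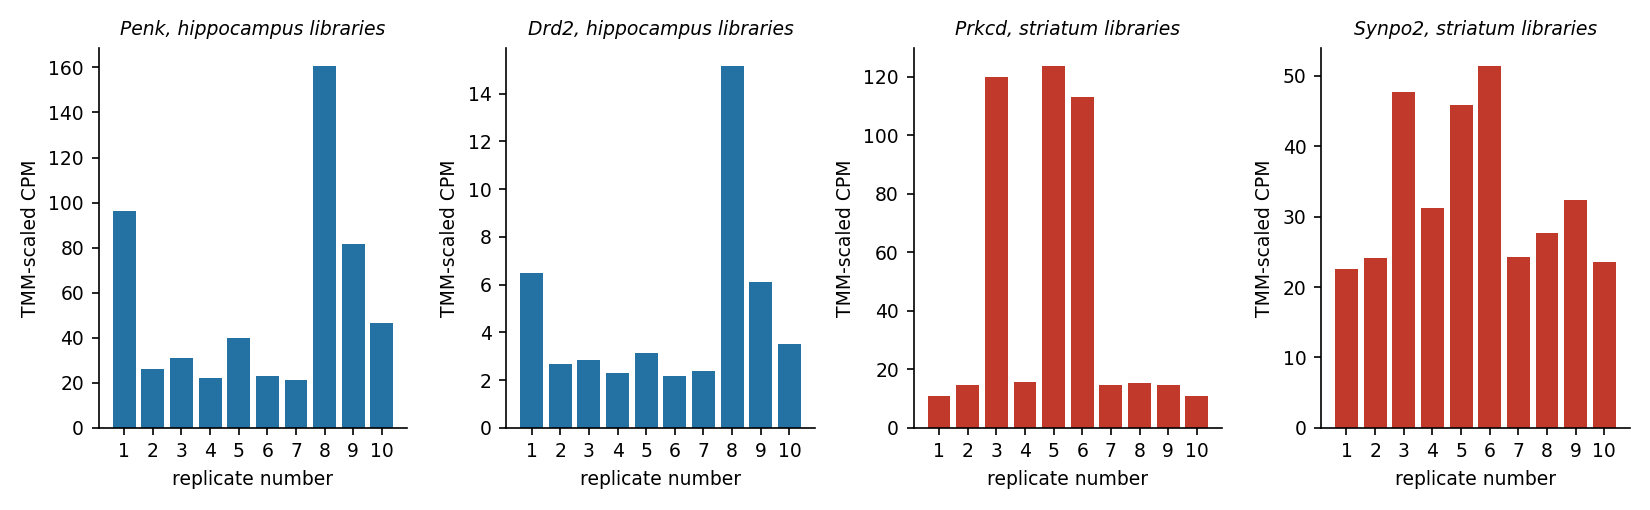
CPM of 4 genes in each numbered library of 1 region: Penk and Drd2 in hippocampus, Prkcd and Synpo2 in striatum. Penk reaches 161, 96.1 and 81.7 CPM in hippocampus libraries 8, 1 and 9 and at most 46.7 CPM in the others, and Prkcd lies between 113 and 124 CPM in striatum libraries 3, 5 and 6.

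Genes of septum, pallidum and hypothalamus were called for striatum in 4 of 11 tested cases and for hippocampus in 1 (median 0.21). Besides Lhx8 these were Nkx2-1, a homeobox factor of ventral forebrain (3.28 ± 0.18), Trh, thyrotropin-releasing hormone (1.61 ± 0.36), and Zic1, which dropped below the 2-fold line without striatum libraries 3, 5 and 6 (1.21 ± 0.26 with them and 0.74 without). Of 16 genes of neocortical layers, 8 were called for striatum and 3 for hippocampus (median 0.94), beside 4.96% and 5.01% of all genes tested. Their differences ran from -2.299 to 3.795. The striatal calls include Foxp2, the complexin gene Cplx3 (1.21 ± 0.18) and Lamp5 (1.19 ± 0.08), which striatal and interneuron populations also express. Ctgf, a marker of the deepest cortical layer, was another (35.8 ± 6.8 CPM against 13.4 ± 6.8 CPM, a difference of 1.42 ± 0.26). The part of neighbouring cortex in these values was not tested. Of 6 dopamine neuron genes tested, Th was called for striatum and Slc18a2, the vesicular monoamine transporter, for hippocampus at a low level (0.699 ± 0.152 CPM against 1.62 ± 0.344 CPM). None of 5 globin and erythroid genes passed; Hbb-bs was at 102 ± 22.1 CPM in striatum and 120.5 ± 36.3 CPM in hippocampus.

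Transcripts of the mitochondrial genome took 7.53% ± 0.406 of counted reads in striatum and 6.25% ± 0.396 in hippocampus (SD, n = 10), a difference of 1.28 percentage points (p = 8e-05, two-sided permutation test with 100000 resamples). Of 13 mitochondrially encoded genes, 12 passed the test toward striatum, beside 32.9% of all genes, and none was called (median 0.39). The cytochrome oxidase subunit mt-Co1 differed by 0.19 ± 0.03 and the ATP synthase subunit mt-Atp6 by 0.39 ± 0.07. Of 32 cytosolic ribosomal protein genes, 27 passed the test toward hippocampus, beside 34.6% of all genes, none toward striatum, and none was called (median -0.16); Rpl4 differed by -0.22 ± 0.03.

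**Figure D4:**
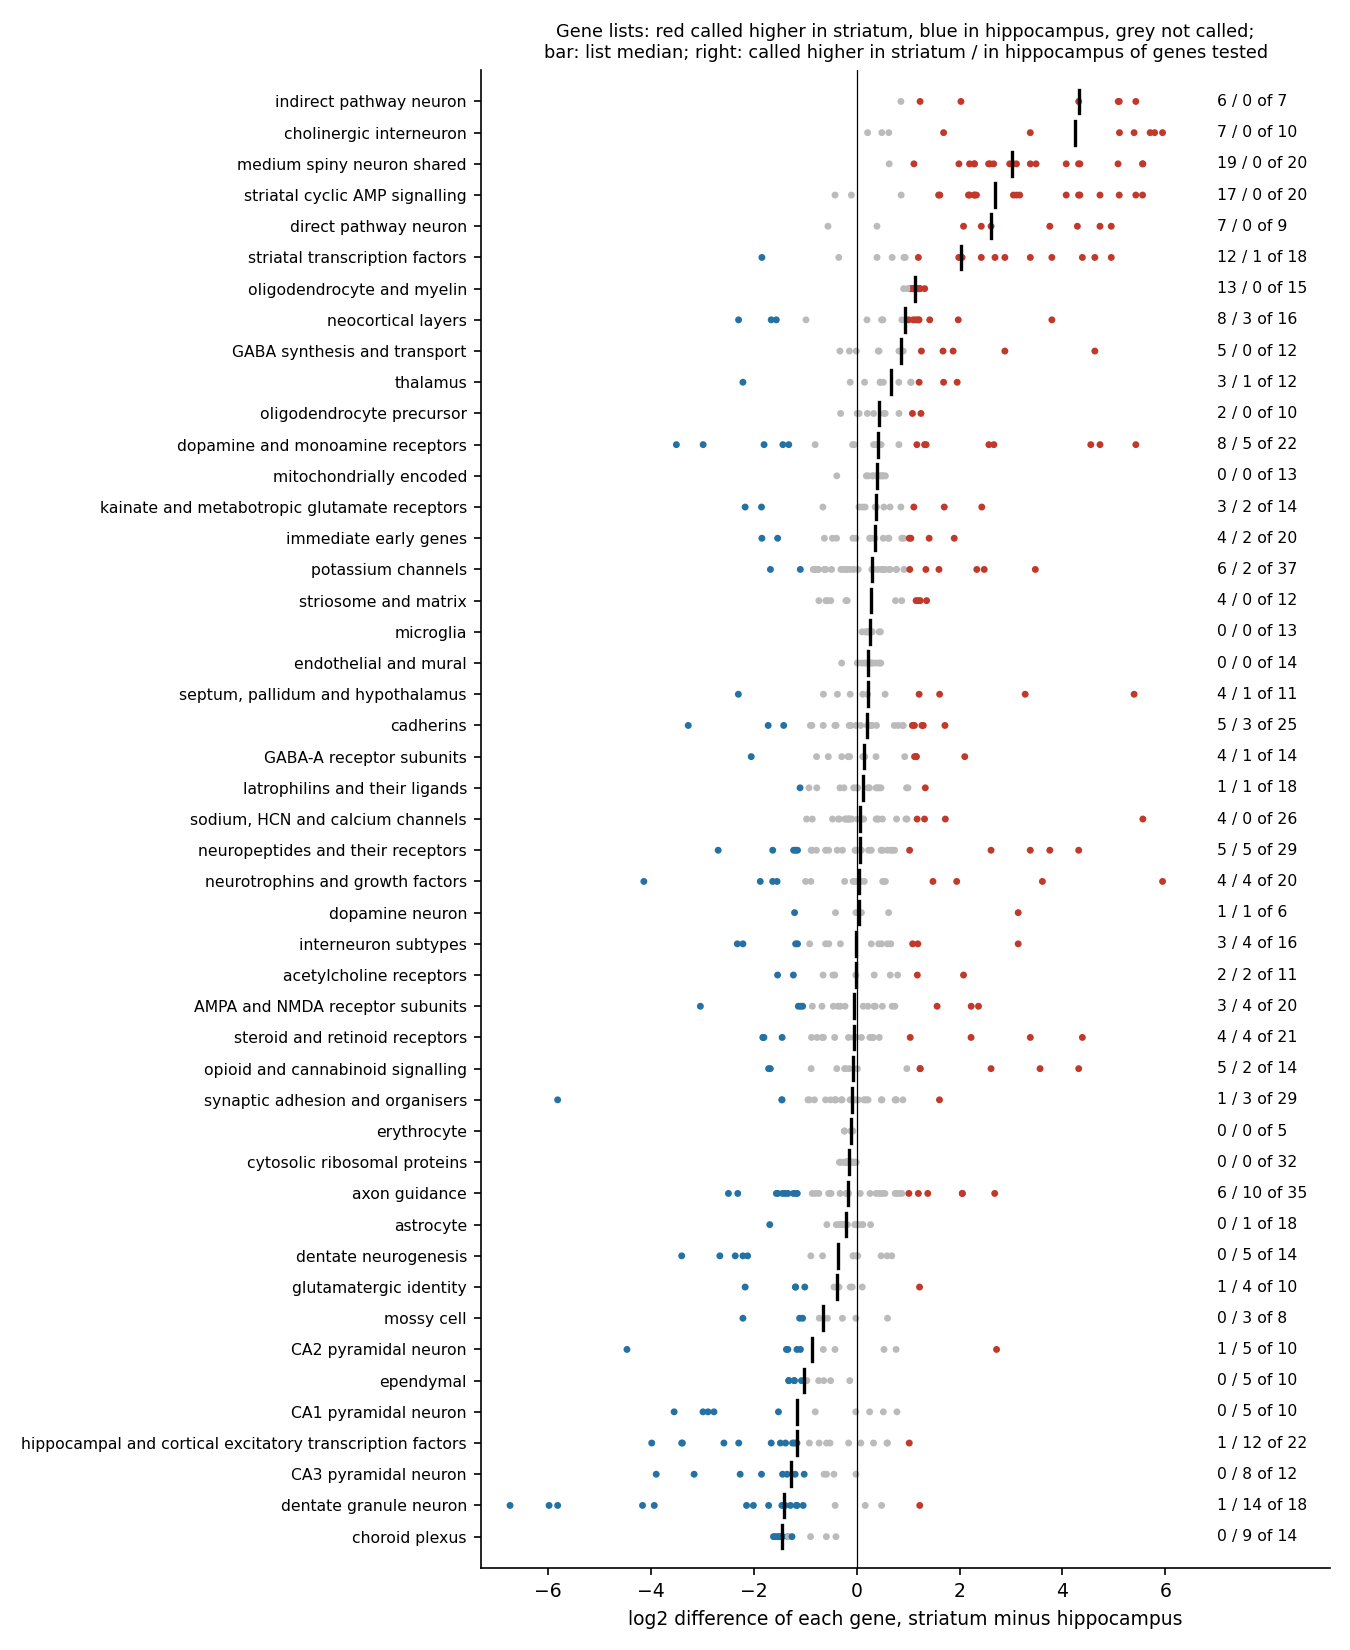
Log2 difference (striatum minus hippocampus) of the tested members of each of the 47 gene lists, 1 point per gene (coloured where called), with the list median as a bar and the counts called at the right. Lists of medium spiny and cholinergic neurons lie to the right (medians 3.01 and 4.24), lists of granule and CA3 neurons to the left (-1.42 and -1.28), and the myelin list at 1.13, while the astrocyte and microglia lists lie at -0.22 and 0.26.

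Wild-type prefrontal cortex, which is also cortical tissue, gives a further level for the same genes, here with all 60 libraries scaled together. Of the striatal genes, Scn4b was at 1574 ± 201.6 CPM in striatum, 33.2 ± 18.0 CPM in hippocampus and 66.4 ± 5.43 CPM in prefrontal cortex (SD, n = 10 each), and Penk at 1080 ± 149.0, 54.0 ± 44.7 and 42.8 ± 4.21 CPM. Slc17a7 and Bdnf had higher means in both cortical regions than in striatum. Slc17a7 was at 562 ± 112.6, 1282 ± 89.4 and 1653 ± 83.1 CPM in striatum, hippocampus and prefrontal cortex, and Bdnf at 11.8 ± 2.68, 43.1 ± 5.40 and 44.1 ± 9.82 CPM. The granule cell gene C1ql2 was low in both other regions, at 1.25 ± 0.347, 70.3 ± 14.8 and 0.949 ± 0.276 CPM. Shisa6 likewise had its highest mean in hippocampus (23.8 ± 4.39, 195 ± 21.9 and 13.4 ± 2.65 CPM). Gsg1l was intermediate in prefrontal cortex (148 ± 10.9, 28.6 ± 5.96 and 93.0 ± 6.95 CPM), and so was Gabrd (102 ± 8.79, 23.7 ± 3.13 and 54.2 ± 5.29 CPM). Mbp was lowest there (2983 ± 620.3, 1347 ± 243.0 and 616 ± 70.4 CPM). Differences that involve prefrontal cortex were not tested here.

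The same comparison was made between the 10 striatum and the 10 hippocampus libraries of knockout mice, which share no library with the wild-type comparison. The targeted gene Adgrl3 was at 41.8 ± 5.26 CPM in knockout striatum and 34.9 ± 3.08 CPM in knockout hippocampus, against 163 ± 9.51 and 125 ± 5.37 CPM in wild type on the same scale (SD, n = 10 each; all 60 libraries scaled together), so reads over the gene remained in both knockout regions. In the knockout comparison 1591 of 15581 genes were called (10.2%), 877 for striatum (5.63%) and 714 for hippocampus (4.58%), and 64.3% passed the test (31.5% toward striatum and 32.7% toward hippocampus). Of the 1557 wild-type calls, 1514 were tested in knockout, 1427 passed the test in the same direction, 1332 were called in the same direction and none had the opposite sign. The shared calls are 85.5% of the wild-type and 83.7% of the knockout calls. Rasd2 differed by 3.49 ± 0.10 in wild type and 3.45 ± 0.11 in knockout, Adcy5 by 3.05 ± 0.10 and 2.99 ± 0.10, Lct by -6.74 ± 0.18 and -6.72 ± 0.17, and C1ql2 by -5.82 ± 0.15 and -5.15 ± 0.26. The last pair was the farthest apart of the 4, and the difference between its genotypes was 0.68 ± 0.32 (unadjusted p = 0.043 and adjusted p = 0.993, edgeR's quasi-likelihood test). Drd2 differed by 5.43 ± 0.30 in wild type and 5.42 ± 0.31 in knockout, Penk by 4.32 ± 0.37 and 4.56 ± 0.35, and Neurod6 by -2.58 ± 0.11 and -2.68 ± 0.15. Mbp differed by 1.14 ± 0.12 and 1.40 ± 0.17. A test of whether the regional difference itself depended on genotype (the interaction, over all 40 libraries) found 0 of 15961 genes at an adjusted p under 0.05 with edgeR's quasi-likelihood test, with DESeq2 or with voom. At an unadjusted p under 0.05 there were 475 genes with edgeR (2.98%) and 499 with DESeq2, and the smallest adjusted p was 0.993 and 0.675. Without the libraries numbered 5, 1 gene passed. A p that misses the threshold does not show that the genotypes were alike.

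**Figure D5:**
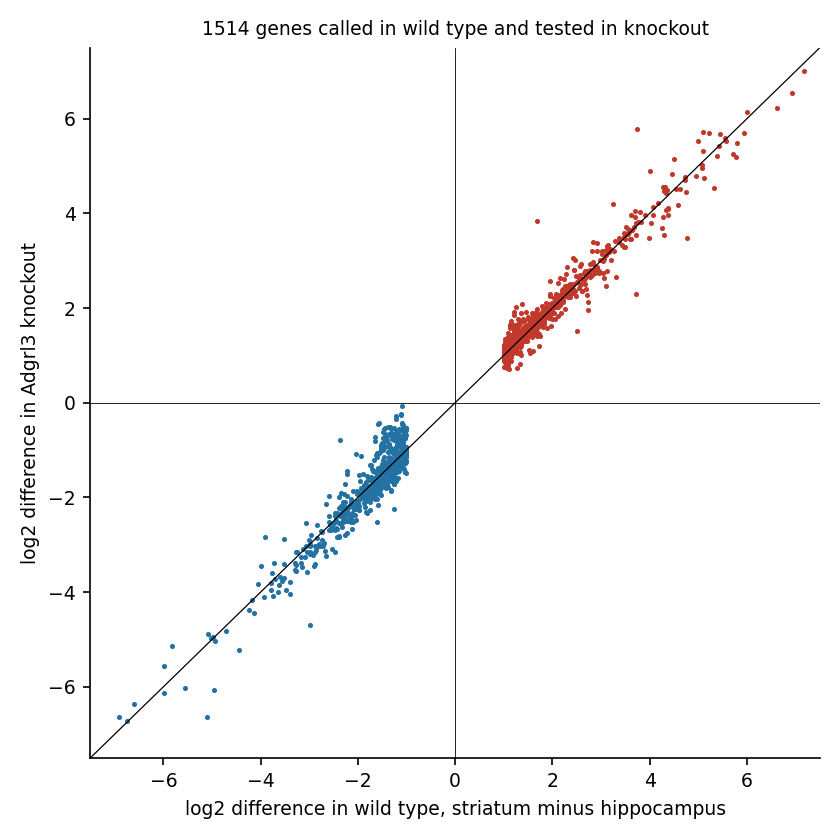
Log2 difference (striatum minus hippocampus) in knockout (vertical axis) against wild type (horizontal axis), 1 point for each of the 1514 genes called in wild type and tested in knockout, coloured by the region of the wild-type call, with the diagonal drawn. No point lies in a quadrant of opposite sign, and Lct lies at -6.74 and -6.72.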

How the data were processed

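RNA was sequenced from microdissected striatum, hippocampus and prefrontal cortex of wild-type and Adgrl3 knockout mice, with 10 libraries per region and genotype. The deposited table holds unnormalised read counts for 21950 protein-coding genes per the file headers, summed over each gene from its start to its end. The submitters' processing notes name the GRCm38 build, the aligner STAR 2.5.2b, the read tools cutadapt 1.16 and FastQC 0.11.4, and also bedtools and DESeq2 1.16.1. The sources do not state whether counting used strand, so genes that overlap may share reads. Groups were taken from the labels.

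Wild-type striatum and hippocampus libraries were fitted with edgeR 4.0.16 (TMM scaling, filterByExpr, robust quasi-likelihood test, R 4.3.3), and p-values were adjusted by Benjamini-Hochberg over the 15624 genes that passed the filter. The knockout libraries and the interaction over 40 libraries were fitted in the same way. Depth was 38985577 to 50641041 reads per library. The fits were also run on simulated counts in which few genes differed. In the data 67.5% of genes passed, so that run does not give the error rate of the regional calls. DESeq2 1.42.0, limma 3.58.1 with quality weights, other filters and scalings, the replicate block and fits without single libraries were tried as alternatives.

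Named genes are Adgrl3, the 4 regional markers, the 12 called genes with the largest difference each way among those with at least 10 CPM in the higher region and no overlap, the 8 with the largest CPM difference each way (mitochondrial genes aside), and for each of 47 gene lists up to 8 called genes each way and up to 3 uncalled genes of the highest level; the text prints part of them. The members and the lists were chosen with earlier results of these data known. Results for a few genes are not reported here.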

Additional observations from a re-analysis of the deposited data

Results flagged for a closer look

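Each region's 10 libraries were searched for a highest or lowest value far from the rest. The search covered the genes named in the text, the mitochondrial share and the counted reads. A value was far where its gap to the nearest library, as a share of the range, was above Dixon's 95% critical value. This held in 38 of 390 sets (9.74%), while chance gives about 1 in 20 for independent, normally distributed values. Many of the genes share a cell type and are high in the same library, so the sets are not independent. Whether 9.74% exceeds chance was therefore not tested. Of the 38, 20 were the highest value of hippocampus library 8 and 7 the highest value of striatum library 9.

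Hippocampus library 8 stood apart for genes of striatal neurons, each called higher in striatum. Among genes of medium spiny neurons it had 81.9 CPM of Scn4b, 155 CPM of Pde10a, 139 CPM of Ppp1r1b, 82.9 CPM of Rasd2, 42.6 CPM of Rgs9 and 15.4 CPM of Syndig1l. Among receptors it had 30.4 CPM of Adora2a, 19.7 CPM of Drd1, 15.2 CPM of Drd2, 4.40 CPM of Gpr6, 16.4 CPM of Htr1b and 1.5 CPM of Htr1d. Of the cholinergic genes it had 2.04 CPM of Chat, 2.90 CPM of Slc5a7 and 0.492 CPM of Lhx8. It also had 3.88 CPM of Cd4, 1.62 CPM of Serpina9, 0.344 CPM of Ptpn7, 5.14 CPM of the potassium channel gene Kcnh4 and 0.983 CPM of Gdnf.

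Striatum library 9 was highest for an overlapping set: 1783 CPM of Adcy5, 2240 CPM of Pde10a, 551 CPM of Rgs9, 323 CPM of Drd1, 154 CPM of Cacng4, 42.0 CPM of Tacr1 and 6.06 CPM of Gdnf.

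The other 11 sets were spread over 8 libraries. Hippocampus library 6 had 210.5 CPM of Kcnip2, 57.4 CPM of Lamp5, 23.9 CPM of Neurod1 and 20.2 CPM of Vip. Hippocampus libraries 2, 3, 4 and 5 had 44.0 CPM of Prkcd, 110 CPM of Nr4a3, 470 CPM of Scn8a and 346 CPM of Gfap in that order. Striatum library 1 had 2123 CPM of Camk2a, library 6 had 0.782 CPM of Lct and library 10 had 24400 CPM of mt-Co1. What set these libraries apart was not tested.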

How the results depend on the processing

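The counts of called genes, 775 for striatum and 782 for hippocampus, stayed within 1.5 times under every alternative run except the test against a 2-fold difference itself (glmTreat), which called 513 and 446. Leaving out 1 replicate number at a time gave 746 to 812 and 725 to 811, and 1.16 to 1.42 percentage points for the mitochondrial share. Of the 368 named genes, 64 lost their call under glmTreat, and 6 with the replicate block. The knockout counts stayed within 1.5 times in each alternative run. The interaction gave 0 to 1 genes without single replicate numbers; the 1 gene, Coro1c, passed without replicate 5, and it was named after its value was seen. Prkcd changed sign, from 1.06 to -0.67 without striatum libraries 3, 5 and 6 and to -0.76 without hippocampus libraries 1, 8 and 9 as well; both removals were chosen after seeing the data, and the cause was not tested.

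Nothing says that equal replicate numbers mark 1 mouse. Deviations of equally numbered striatum and hippocampus libraries correlated at -0.205 to 0.472, over 0.1 in 8 of 10 pairs, against -0.411 to 0.342 for other pairs, and 7 striatum and 6 hippocampus libraries correlated best with their own number. With the replicate number as a block, the choroid plexus genes Cldn2, Folr1, Otx2, Slc4a5 and Steap1 had edgeR adjusted p of 0.0669 to 0.0960 in place of a call for hippocampus, Egr4 differed by 0.98, under the 2-fold line, and 778 and 751 genes were called in wild type, 881 and 724 in knockout, and 0 in the interaction. Genes with few reads in 1 region, such as Gpx6 in hippocampus, have fold differences limited by counting.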

Other observations

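Some genes varied with the replicate number in both regions. By a rule chosen after seeing the data, 14336 genes had a mean of at least 1 CPM in either region, 143 of these had an SD of at least 0.5 on the log2(CPM + 0.5) scale within both regions, and in 37 of those the SD of the difference between equally numbered libraries was under the smaller of those SDs divided by 3. In 27 of the 37, the same replicate number was highest in both regions. The rule itself picks genes whose equally numbered libraries agree, so this count cannot show whether a number marks 1 mouse. Many of the 37 are related gene models on chromosome 14 and are not separate cases.

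Wdfy1, an adaptor of endosomal receptors, was lowest in replicate number 8 of both regions (18.1 and 16.8 CPM, against medians of 49.8 and 44.0 CPM). Gm3383, one of a group of related gene models on chromosome 14, was highest in replicate number 2 of both (31.0 and 39.6 CPM, against medians of 3.18 and 5.19 CPM). The chemokine gene Ccl21a was lowest in replicate number 1 of both (0.153 and 0.0781 CPM, against medians of 2.84 and 3.39 CPM). These genes were named after their values were seen.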
